A study of Mus musculus with 15 samples.

Results

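The albumin gene family of the mouse was followed here through its chromatin accessibility in liver cells: Alb (gene ID 11657), Afp (11576), Afm (280662) and Gc (14473). Their members are regions of the deposited accessibility table whose midpoint lies in the body of 1 of these genes, or outside every protein-coding body with that gene as the nearest within 50 kb. The rule found 31 of 93217 regions, 6 at Alb, 5 at Afp, 2 at Afm and 18 at Gc, and it used positions only, not measured values. All lie on chromosome 5 of the mm10 build. Alb occupies chr5:90460870-90476602 and is followed on the same plus strand by Afp at chr5:90490714-90508907 and Afm at chr5:90518949-90553544. Gc is read from the minus strand at chr5:89417511-89457898, about 1003 kb before Alb.

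The series profiled mouse liver by ATAC-seq, in which a transposase cuts and tags open DNA, in 15 libraries that fall into 5 groups of 3. Untreated mice gave hepatocytes and biliary cells, and 3 cell groups (hepatocytes, reprogrammed hepatocytes and biliary cells) came from mice treated with DDC (diethoxycarbonyl-dihydrocollidine, a diet additive used to injure bile ducts). Cells came straight from a sort of the liver and were neither grown in culture nor treated afterwards. The sort markers, the way reprogrammed hepatocytes were told from other hepatocytes, and the strain, genotype, age, DDC dose and duration of the animals are unstated in the labels. Nothing in the labels ties replicates to different animals, so p-values reflect only how far these libraries spread, which may be technical.

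Albumin is the main protein of blood plasma and carries fatty acids, hormones and bilirubin. Alpha-fetoprotein, encoded by Afp, is its counterpart in the fetal liver and falls silent after birth, although injured or regenerating liver can express it again. Afamin, from Afm, binds vitamin E, and Gc encodes the vitamin D binding protein. The family arose by duplication, and hepatocytes are its main source in the adult, whereas bile duct cells do not make albumin. The Alb promoter is a textbook example of a liver promoter: C/EBP and NF-Y proteins bind next to its start, and forkhead and other factors bind an enhancer far upstream.

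The promoter of each gene is shown because it is the stretch on which the 4 genes can be compared base by base. The lines give the 250 bases before each start site, 5′ to 3′ on the strand of the gene, from RefSeq's table for GRCm38.p6, which matched all 4 symbols. Capitals mark the CCAAT box, read by NF-Y, as CCAAT or, on the opposite strand, ATTGG.
Alb (chr5:90460620-90460869, plus strand): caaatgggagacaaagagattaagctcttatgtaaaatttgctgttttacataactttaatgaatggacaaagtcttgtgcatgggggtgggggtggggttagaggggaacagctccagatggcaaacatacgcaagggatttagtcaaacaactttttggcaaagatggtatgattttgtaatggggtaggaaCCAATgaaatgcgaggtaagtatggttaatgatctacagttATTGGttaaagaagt
Afp (chr5:90490464-90490713, plus strand): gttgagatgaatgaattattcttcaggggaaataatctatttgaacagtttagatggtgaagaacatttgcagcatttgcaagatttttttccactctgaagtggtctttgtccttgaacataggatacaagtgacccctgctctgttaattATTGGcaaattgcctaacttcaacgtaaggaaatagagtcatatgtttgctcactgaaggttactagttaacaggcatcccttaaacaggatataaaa
Afm (chr5:90518699-90518948, plus strand): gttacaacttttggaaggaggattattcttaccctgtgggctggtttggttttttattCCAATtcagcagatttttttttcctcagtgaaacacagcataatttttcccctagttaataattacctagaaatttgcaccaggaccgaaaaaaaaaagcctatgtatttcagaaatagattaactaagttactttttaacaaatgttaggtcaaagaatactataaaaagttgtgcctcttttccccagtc
Gc (chr5:89457899-89458148, minus strand): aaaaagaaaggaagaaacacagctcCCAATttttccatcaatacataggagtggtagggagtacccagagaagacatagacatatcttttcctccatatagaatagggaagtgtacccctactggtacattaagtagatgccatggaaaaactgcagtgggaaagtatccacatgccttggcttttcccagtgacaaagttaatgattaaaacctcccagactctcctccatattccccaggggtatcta

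All 4 promoters carry the CCAAT box, Alb on both strands and the others on 1, a motif that 33.85% of 32851 RefSeq promoters of this length hold. It begins at positions -56 and -15 from the start site in Alb, at -98 in Afp, at -192 in Afm and at -225 in Gc, so it lies nearest to the start in Alb. The C/EBP core TTGCNNAA, searched on both strands like the others, occurs in Alb at -94 and in Afp at -89, in neither of the other promoters, and in 9.564% of all promoters. None of these matches overlaps a CCAAT box. TATAAA occurs in Afp at -7 and in Afm at -30 and in 12.368% of all promoters, and the forkhead core TGTTTAC occurs in none of the 4 and in 3.166%. These matches describe letters, not measured binding. The promoters of Alb, Afm and Gc fall inside accessible regions of the table, while the region nearest to the Afp start site begins 2001 bp inside the gene.

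Accessibility is given as nuclear RPM, the reads that fall in a region for every 1000000 nuclear reads, meaning reads in regions outside the mitochondrial genome. The libraries differed widely in depth, with 201705 to 605309 nuclear reads in untreated hepatocytes, 1191409 to 2342643 in DDC hepatocytes, 4756891 to 9829886 in reprogrammed hepatocytes, and, in biliary cells, 5151190 to 10395918 with DDC and 2439831 to 4389653 without. Mitochondrial reads made up 63.1% to 84.2% of reads in regions in untreated hepatocytes, 29.1% to 42.4% in DDC hepatocytes and 4.69% to 21.9% in the other groups. A region without a read could still hold up to 14.9 nuclear RPM in the shallowest hepatocyte library, by a limit of 3 reads, but at most 0.631 in reprogrammed hepatocytes. Depth and mitochondrial share follow the groups, so their part in differences between groups cannot be told apart from cell type. Markers were high where the labels place them: the summed level of 7 hepatocyte marker genes with regions was 2816 to 4214 in untreated and 1646 to 2388 in DDC hepatocytes, 359 to 680 in reprogrammed hepatocytes, 228 to 485 in DDC biliary cells and 290 to 829 in biliary cells of untreated mice. The sum of 7 biliary markers was 158 to 312 in both hepatocyte groups, 553 to 652 in reprogrammed hepatocytes and 867 to 1020 in both biliary groups.

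Alb was the most accessible of the 4 genes in hepatocytes, and its signal was much lower in reprogrammed hepatocytes and in both biliary groups. Its signal came mainly from a single region of 20.6 kb at chr5:90460319-90480882, which begins 551 bp before the start site, covers every exon and intron of the gene and ends 4.28 kb past it. Of all nuclear regions only 40 are longer, and the median length is 706 bp. In untreated hepatocytes this region held 724, 786 and 426 nuclear RPM (libraries 1, 2 and 3), and in DDC hepatocytes 536, 866 and 490. Reprogrammed hepatocytes held 65.9, 48.8 and 104, DDC biliary cells 36.3, 96.1 and 47.2, and untreated biliary cells 133, 48.0 and 63.6. Every hepatocyte library lay above every library of the other 3 groups, and among those 3 groups the ranges overlapped. The shallowest of these values rests on 100 reads, with a 95% Wilson interval of 350 to 518 that covers counting error only.

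In these terms the Alb body ranked between 4th and 21st among all nuclear regions in the 6 hepatocyte libraries, without regard to length. In the 9 others its rank lay between 506th and 7662nd. Per kb of length it ranked much lower, between 1092nd and 12861st in the 6 hepatocyte libraries and between 32711th and 73485th in the 9 others. The test was limma's moderated test on log2(nuclear RPM + 1) over all 15 libraries, with Benjamini-Hochberg adjustment over 79075 regions, and a region is called below when its adjusted p is under 0.05. Against DDC hepatocytes the region was lower by a log2 difference of -3.12 ± 0.39 (SE, n = 3 per group, adjusted p = 0.000905) in reprogrammed hepatocytes. The difference was -3.45 ± 0.39 (adjusted p = 0.000126) in DDC biliary cells, a comparison that shares the DDC hepatocyte libraries. Untreated biliary cells were lower than untreated hepatocytes by -3.06 ± 0.39 (adjusted p = 6.41e-05). All of these calls held under every alternative tried. DDC and untreated hepatocytes did not differ detectably, with -0.03 ± 0.39 (adjusted p = 0.983) and an interval of 2 standard errors from -0.82 to 0.76. Between reprogrammed hepatocytes and DDC biliary cells the difference was 0.33 ± 0.39 (adjusted p = 1), with an interval from -0.45 to 1.12. Sorted cells were measured in bulk, so fewer cells with an open Alb gene and a less open gene in every cell cannot be told apart.

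**Figure D1:**
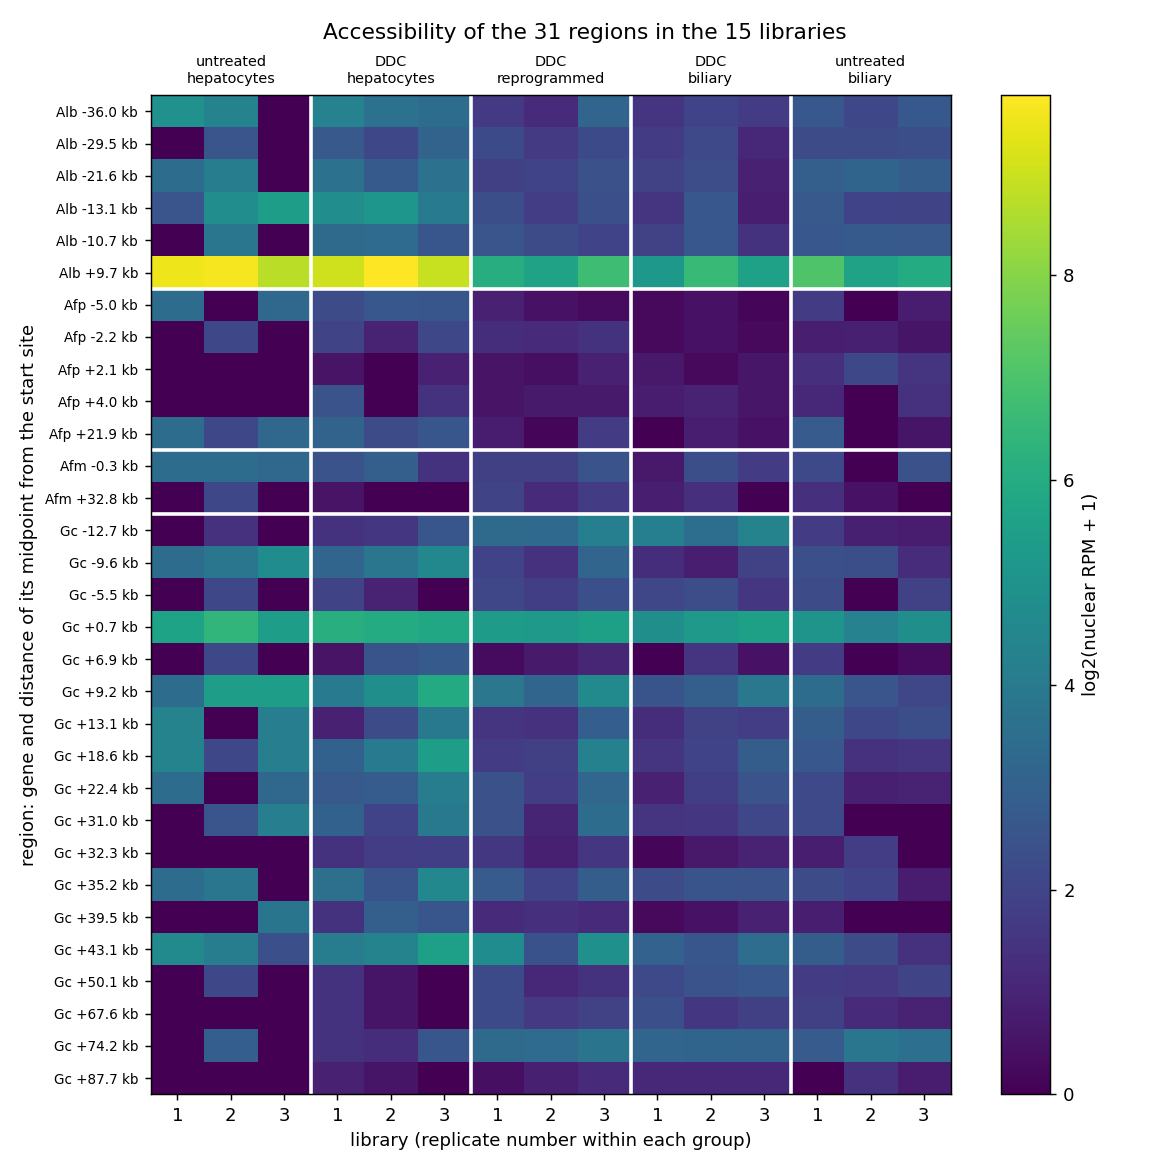
Colour gives log2(nuclear RPM + 1) of each of the 31 regions (rows, labelled by gene and distance of the midpoint from the start site) in each of the 15 libraries (columns, 3 per group). The row of the Alb body is brightest in the 6 hepatocyte libraries, and the Gc row at -12.7 kb is bright in reprogrammed and DDC biliary cells alone.

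Residual Alb signal followed the hepatocyte markers from library to library. Among reprogrammed hepatocytes, library 3 was highest in both (104 nuclear RPM at the Alb body, marker sum 680) and library 2 lowest in both (48.8 and 359). DDC biliary library 2 was highest in its group in both (96.1 and 485), and untreated biliary library 1 likewise (133 and 829). The lower untreated biliary libraries were in the opposite order, with 48.0 and 360 in library 2 against 63.6 and 290 in library 3. Whether hepatocytes carried through the sort had a part in the residual Alb signal was not tested.

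**Figure D2:**
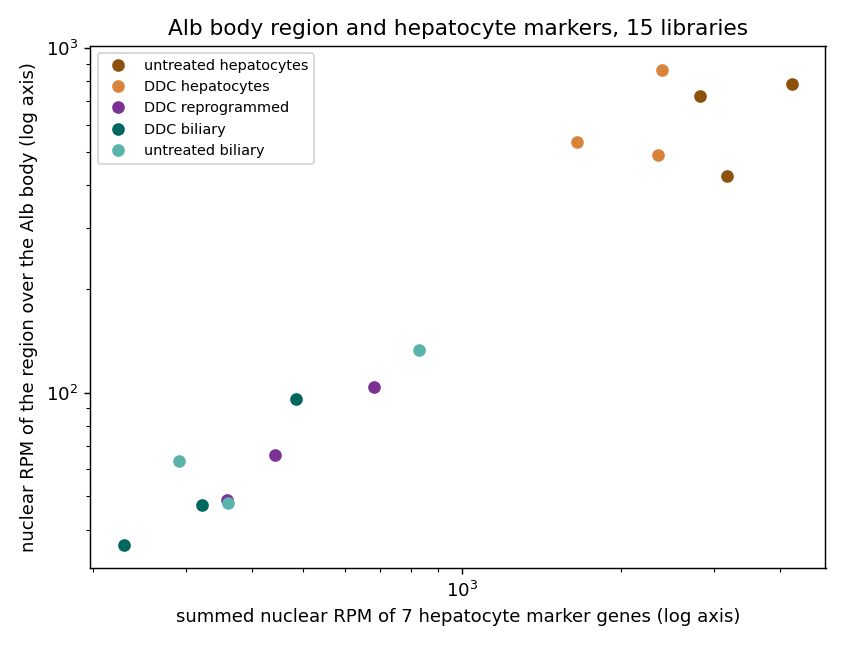
Each point is 1 library, with the summed nuclear RPM of 7 hepatocyte marker genes on the horizontal log axis and the nuclear RPM of the Alb body region on the vertical log axis. The 6 hepatocyte libraries lie at 426 to 866 nuclear RPM at the Alb body, and the 9 others lie at 36.3 to 133.

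The 5 smaller Alb regions lie upstream, with midpoints between 10.7 and 36.0 kb before the start site. Their summed level was 56.0 ± 21.6 nuclear RPM in untreated hepatocytes (mean ± SD, n = 3), 62.2 ± 11.7 in DDC hepatocytes, 17.8 ± 5.42 in reprogrammed hepatocytes, 12.9 ± 7.13 in DDC biliary cells and 24.9 ± 1.75 in biliary cells of untreated mice. In this sum both hepatocyte groups lay above the 3 others, which lay from 6.84 to 26.8. In untreated hepatocytes the regions 36.0 and 13.1 kb upstream had the highest means of the 5, at 16.5 and 24.7. Of these 5 regions, the one 13.1 kb upstream (chr5:90447441-90448164, intergenic) was called. It held 4.96, 26.4 and 42.6 nuclear RPM in untreated hepatocytes and 26.5, 34.0 and 15.1 in DDC hepatocytes. Reprogrammed hepatocytes held 4.05, 2.44 and 4.20 there, DDC biliary cells 1.73, 5.24 and 0.782, and untreated biliary cells 5.67, 2.87 and 2.96. All DDC hepatocyte libraries lay above all libraries of the 3 low groups, whereas untreated hepatocyte library 1, with a single read, fell among them.

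At this region the log2 difference from DDC hepatocytes was -2.47 ± 0.66 in reprogrammed hepatocytes (adjusted p = 0.0217) and -3.00 ± 0.66 in DDC biliary cells (adjusted p = 0.00372). Between untreated biliary cells and untreated hepatocytes it was -2.04 ± 0.66 (adjusted p = 0.0255). The first of these calls ended without DDC hepatocyte library 1 or 2 or without reprogrammed library 1 or 2, the second ended on reads thinned to equal depth (adjusted p = 0.127), and the third ended without library 2 or 3 of either group, with mitochondrial reads in the total and with only the groups compared, and both this call and the first ended on thinned reads too (largest adjusted p over all alternatives 0.259 for the first and 0.501 for the third). The other 4 upstream regions had negative differences in both comparisons with DDC hepatocytes, and limma called none of them. There edgeR called 2 in reprogrammed hepatocytes and 3 in DDC biliary cells. Between untreated biliary cells and untreated hepatocytes the differences were 1.42, 0.47 and 1.44 at 29.5, 21.6 and 10.7 kb upstream, and -0.63 at 36.0 kb. None of these was called by limma in the main fit. With mitochondrial reads in the total, those at 29.5, 21.6 and 10.7 kb were called higher in untreated biliary cells. Relative to the whole gene, the body region supplied 91.9 ± 1.97% of the Alb signal in untreated hepatocytes and 90.6 ± 2.50% in DDC hepatocytes. It supplied 80.1 ± 1.36% in reprogrammed hepatocytes, 82.0 ± 5.44% in DDC biliary cells and 74.2 ± 8.19% in biliary cells of untreated mice, and no test was run on these shares.

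Summed over its regions, Alb held 701 ± 208 nuclear RPM in untreated hepatocytes, 693 ± 209 in DDC hepatocytes, 106 ± 47.0 in untreated biliary cells, 90.6 ± 33.5 in reprogrammed hepatocytes and 72.8 ± 38.3 in DDC biliary cells. The ranges of neighbours in this order overlapped except at the step from DDC hepatocytes to untreated biliary cells. The same limma fit over 16273 genes gave 7.69-fold lower accessibility in reprogrammed than in DDC hepatocytes (log2 difference -2.94 ± 0.37, adjusted p = 0.000274). Among all genes only 13 had a more negative difference there, as Alb ranked 14th. In DDC biliary cells Alb was 9.92-fold lower than in DDC hepatocytes (-3.31 ± 0.37, adjusted p = 2.72e-05) and ranked 27th. In untreated biliary cells it was 6.71-fold lower than in untreated hepatocytes (-2.75 ± 0.37, adjusted p = 7.36e-05), a call that was lost when mitochondrial reads were kept in the total (-0.85, adjusted p = 0.0741). Per kb of its regions Alb stood at 28.5 nuclear RPM in untreated hepatocytes, against 5.09 for Gc, but at 2.95 in DDC biliary cells, against 3.05 for Gc.

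**Figure D3:**
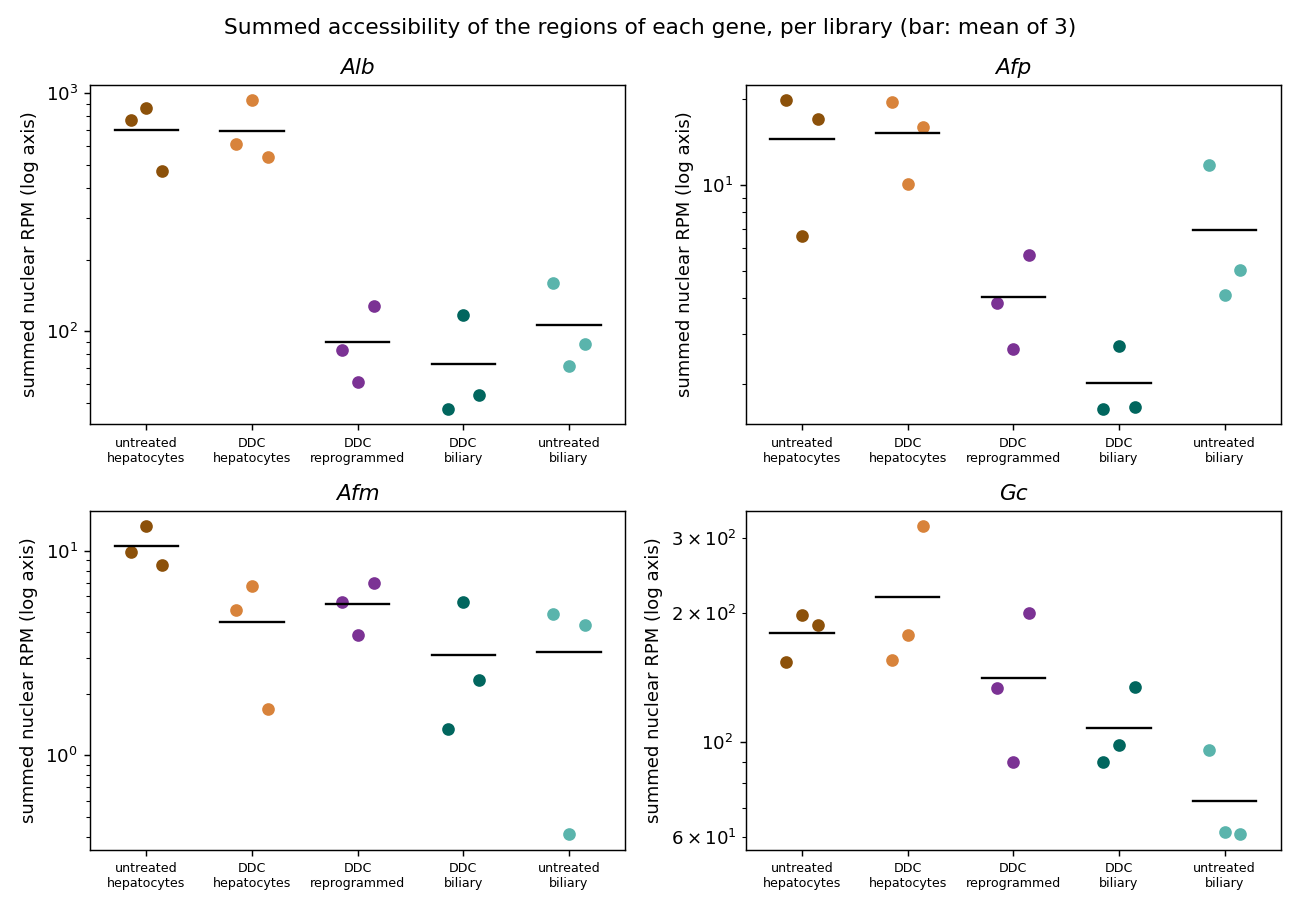
Each panel shows 1 gene, and each point is the summed nuclear RPM of its regions in 1 library on a log axis, with a bar at the mean of 3. Alb separates the 6 hepatocyte libraries (468 to 930) from the 9 others (47.4 to 160). For Gc the 6 hepatocyte libraries (154 to 320) lie above both biliary groups (60.8 to 135), and reprogrammed hepatocytes (89.7 to 201) overlap with both cell types.

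Afp had little open chromatin in any group. No region covered its start site, and its 5 regions, of 234 to 347 bp, summed to 14.5 ± 6.97 nuclear RPM in untreated hepatocytes, 15.2 ± 4.83 in DDC hepatocytes, 6.94 ± 4.16 in untreated biliary cells, 4.05 ± 1.53 in reprogrammed hepatocytes and 2.005 ± 0.618 in DDC biliary cells. The ranges of neighbours in this order overlapped, and the untreated hepatocyte values rest on 4 reads in each library. All DDC hepatocyte libraries (19.6, 10.1 and 15.9) lay above all reprogrammed (3.84, 2.65 and 5.68) and all DDC biliary libraries (1.64, 2.72 and 1.66). The gene was called lower than in DDC hepatocytes in reprogrammed hepatocytes (log2 difference -1.68 ± 0.51, adjusted p = 0.0368) and in DDC biliary cells (-2.40 ± 0.51, adjusted p = 0.00257). The first call was lost when any DDC hepatocyte library, or reprogrammed library 1 or 2, was left out, and both were lost on thinned reads (largest adjusted p over all alternatives 0.465 and 0.218). DDC and untreated hepatocytes did not differ detectably at Afp, at 0.15 ± 0.51 (adjusted p = 0.869, interval -0.87 to 1.16).

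Among single Afp regions, 3 reached a mean of 1 nuclear RPM and were tested. The one with the highest mean lies 3.74 kb past the end of the gene (chr5:90512474-90512820). It held 9.92, 3.30 and 8.52 nuclear RPM in untreated hepatocytes, 7.68, 3.83 and 5.04 in DDC hepatocytes, 0.658, 0.102 and 2.31 in reprogrammed hepatocytes, 0, 0.777 and 0.391 in DDC biliary cells, and 6.04, 0 and 0.456 in biliary cells of untreated mice. Both hepatocyte groups lay above reprogrammed hepatocytes and DDC biliary cells, while untreated biliary library 1 reached into the hepatocyte range. The untreated hepatocyte values rest on 2 reads in each library, where 3 reads would give 4.96 to 14.9, so that group is poorly resolved here. Against DDC hepatocytes the region past the end was called lower in DDC biliary cells (-2.23 ± 0.67, adjusted p = 0.0213), as was the region 4.96 kb upstream of the start (-2.22 ± 0.72, adjusted p = 0.0293). Leaving out any of the 6 libraries ended the call 4.96 kb upstream, and DDC hepatocyte library 1 or DDC biliary library 1 or 3 decided the call past the end, and both were lost on thinned reads (adjusted p up to 0.308). The 2 regions within the gene body did not reach the mean of 1. The nearer to the start site, at chr5:90492715-90492955, was without a read in all untreated hepatocyte libraries and held 1.51, 3.28 and 1.82 in untreated biliary cells, with at most 0.841 in any DDC library. These biliary values lie below what 3 reads would give in untreated hepatocytes (4.96 to 14.9), so no difference between the untreated groups can be read from them.

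Afm likewise had few reads, with 2 regions that summed to 10.5 ± 2.41 nuclear RPM in untreated hepatocytes, 5.46 ± 1.54 in reprogrammed hepatocytes, 4.50 ± 2.57 in DDC hepatocytes, 3.22 ± 2.45 in untreated biliary cells and 3.11 ± 2.24 in DDC biliary cells. The 4 lower groups overlapped. The tested region, at chr5:90518172-90519042, spans the start site and contains the promoter printed above. It held 9.92, 9.91 and 8.52 nuclear RPM in untreated hepatocytes, on 2 to 6 reads, and 4.70, 6.70 and 1.68 in DDC hepatocytes. Reprogrammed hepatocytes held 2.63, 2.65 and 4.62, DDC biliary cells 0.577, 4.08 and 2.35, and untreated biliary cells 3.40, 0 and 4.33. Untreated hepatocytes lay above every other library. Only the comparison of untreated biliary cells with untreated hepatocytes was called (-1.87 ± 0.64, adjusted p = 0.0347), and the call was lost without untreated hepatocyte library 2 or untreated biliary library 2, in edgeR, with only the groups compared, with mitochondrial reads in the total and on thinned reads (largest adjusted p 0.703). Between reprogrammed and DDC hepatocytes the difference was -0.22 ± 0.64 (adjusted p = 0.861, interval -1.50 to 1.06). The second region lies 32.8 kb into the gene and had a mean of 0.964 nuclear RPM over all libraries.

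At Gc the 5 groups lay closer together than at Alb. Its 18 regions summed to 180 ± 23.2 nuclear RPM in untreated hepatocytes, 218 ± 89.0 in DDC hepatocytes, 141 ± 55.8 in reprogrammed hepatocytes, 108 ± 23.9 in DDC biliary cells and 72.8 ± 20.1 in biliary cells of untreated mice. In the order of these means the ranges of all neighbouring groups overlapped. Even so, every untreated and DDC hepatocyte library (154 to 320) lay above every biliary library (60.8 to 135). Reprogrammed hepatocytes (89.7 to 201) reached into both ranges. The gene was called lower in DDC biliary cells than in DDC hepatocytes (-0.96 ± 0.30, adjusted p = 0.027), and lower in untreated biliary cells than in untreated hepatocytes (-1.32 ± 0.30, adjusted p = 0.00279). The first call was lost without DDC hepatocyte library 3 or DDC biliary library 1 or 2, with mitochondrial reads in the total and on thinned reads (largest adjusted p 0.292), and the second turned to 0.56 with mitochondrial reads in the total. Reprogrammed and DDC hepatocytes differed by -0.62 ± 0.30 (adjusted p = 0.186), which was not called, whereas edgeR with TMM factors called Gc lower there (-0.69, adjusted p = 0.0356).

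The region with the highest mean at Gc covers the start site and 6.9 kb around it (chr5:89453767-89460661). It held 49.6, 85.9 and 42.6 nuclear RPM in untreated hepatocytes and 69.2, 63.7 and 55.4 in DDC hepatocytes. In reprogrammed hepatocytes it held 39.9, 36.7 and 45.2, in DDC biliary cells 28.3, 38.2 and 45.6, and in untreated biliary cells 32.5, 18.9 and 28.2. DDC hepatocytes lay above all reprogrammed and biliary libraries, and untreated hepatocytes overlapped with reprogrammed hepatocytes and DDC biliary cells. The log2 difference from DDC hepatocytes was -0.61 ± 0.29 in reprogrammed hepatocytes (adjusted p = 0.165) and -0.75 ± 0.29 in DDC biliary cells (adjusted p = 0.0613). edgeR, which tests the recovered reads, called both (adjusted p = 0.0299 and 0.00681), as did limma on only the groups compared (0.0319 and 0.00813), while the largest adjusted p over other scalings, depths and tools was 0.779 and 0.648. Untreated biliary cells were called lower than untreated hepatocytes (-1.10 ± 0.29, adjusted p = 0.00793), a call that was lost with TMM factors, with only the groups compared and on thinned reads (largest adjusted p 0.22), and this difference turned to 0.71 with mitochondrial reads in the total.

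Along the Gc body the signal was spread over 9 regions with midpoints 6.87 to 39.5 kb from the start site. Their sum was 84.0 ± 26.8 nuclear RPM in untreated hepatocytes, 105 ± 72.4 in DDC hepatocytes, 45.4 ± 29.6 in reprogrammed hepatocytes, 25.6 ± 11.5 and 20.9 ± 13.2 in DDC and untreated biliary cells. DDC hepatocyte library 3 stood highest of all at 187, above 51.7 and 75.2 in the other libraries of its group, and reprogrammed library 3 stood at 78.6, above 36.0 and 21.7. In that reprogrammed library the hepatocyte marker sum was also the highest of its group, and untreated biliary library 1 was highest in both (35.9 and 829). In untreated hepatocytes, DDC hepatocytes and DDC biliary cells library 3 was highest at the Gc body (115, 187 and 37.6). In each of these groups library 2 had the highest marker sum (4214, 2388 and 485). A part of the marker level in this signal was not tested. Of the body regions, the one at 9.22 kb (chr5:89447026-89450329) was called lower in DDC biliary cells than in DDC hepatocytes (-1.83 ± 0.64, adjusted p = 0.0411), and in untreated biliary cells than in untreated hepatocytes (-2.09 ± 0.64, adjusted p = 0.0183). It ranged from 15.8 to 62.1 nuclear RPM in DDC hepatocytes, against 4.81 to 14.1 in DDC biliary cells. The first call was lost without DDC hepatocyte library 2 or 3 or DDC biliary library 1 or 2, at pseudocount 0.5 and on thinned reads (largest adjusted p 0.28). The second was lost without untreated hepatocyte library 2 or untreated biliary library 2 or 3, with mitochondrial reads in the total and with only the groups compared (largest adjusted p 0.562).

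Upstream of Gc, 2 regions about 3 kb apart went opposite ways. The region 9.6 kb upstream (chr5:89466548-89468444) held 9.92, 13.2 and 25.5 nuclear RPM in untreated hepatocytes, 8.11, 13.4 and 22.7 in DDC hepatocytes, 2.85, 1.63 and 8.20 in reprogrammed hepatocytes, 1.44, 0.777 and 2.83 in DDC biliary cells, and 4.16, 4.10 and 1.37 in biliary cells of untreated mice. It was called lower in DDC biliary cells than in DDC hepatocytes (-2.51 ± 0.58, adjusted p = 0.00513) and in untreated biliary cells than in untreated hepatocytes (-2.02 ± 0.58, adjusted p = 0.0143). The first call was lost on thinned reads (adjusted p = 0.667). The second was lost without untreated biliary library 3, with mitochondrial reads in the total, with only the groups compared, with TMM factors and on thinned reads (largest adjusted p 0.547). The region 12.7 kb upstream (chr5:89470158-89470996) held 0, 1.65 and 0 in untreated hepatocytes, 1.71, 1.92 and 5.04 in DDC hepatocytes, 9.32, 9.16 and 17.4 in reprogrammed hepatocytes, 17.7, 10.5 and 19.6 in DDC biliary cells, and 2.27, 0.820 and 0.683 in biliary cells of untreated mice. All 6 libraries of reprogrammed hepatocytes and DDC biliary cells lay above all 9 of the other groups. Their values rest on 54 to 201 reads each, against 0 to 6 reads in the others.

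At the region 12.7 kb upstream, DDC biliary cells exceeded untreated biliary cells by a log2 difference of 2.93 ± 0.54 (adjusted p = 0.0094) and DDC hepatocytes by 2.18 ± 0.54 (adjusted p = 0.00744). Reprogrammed hepatocytes exceeded DDC hepatocytes by 1.78 ± 0.54 (adjusted p = 0.0382) and untreated biliary cells by 2.53 ± 0.54 (adjusted p = 0.0216). The 2 groups in which it was measured highest did not differ detectably from each other (-0.40 ± 0.54, adjusted p = 1, interval -1.48 to 0.68). Between DDC and untreated hepatocytes the difference was 1.39 ± 0.54 (adjusted p = 0.107). The absence of reads in untreated hepatocyte libraries 1 and 3 allows up to 14.9 and 12.8 nuclear RPM. At that depth these libraries cannot place untreated hepatocytes below reprogrammed hepatocytes or DDC biliary cells. The DDC effect in hepatocytes and in biliary cells differed by -1.54 ± 0.76, which was not called (adjusted p = 0.299). The call between DDC biliary cells and DDC hepatocytes held under every alternative tried. That of reprogrammed against DDC hepatocytes was lost without DDC hepatocyte library 1 or 2 or any reprogrammed library, under the replicate block, at pseudocount 0.5 and on thinned reads (largest adjusted p 0.135). Against untreated biliary cells, the call in DDC biliary cells was lost without DDC biliary library 1 or 3 or untreated biliary library 3, or on thinned reads (largest adjusted p 0.242). The call in reprogrammed hepatocytes was lost without any reprogrammed library, without untreated biliary library 2 or 3, or on thinned reads (largest adjusted p 0.485).

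**Figure D4:**
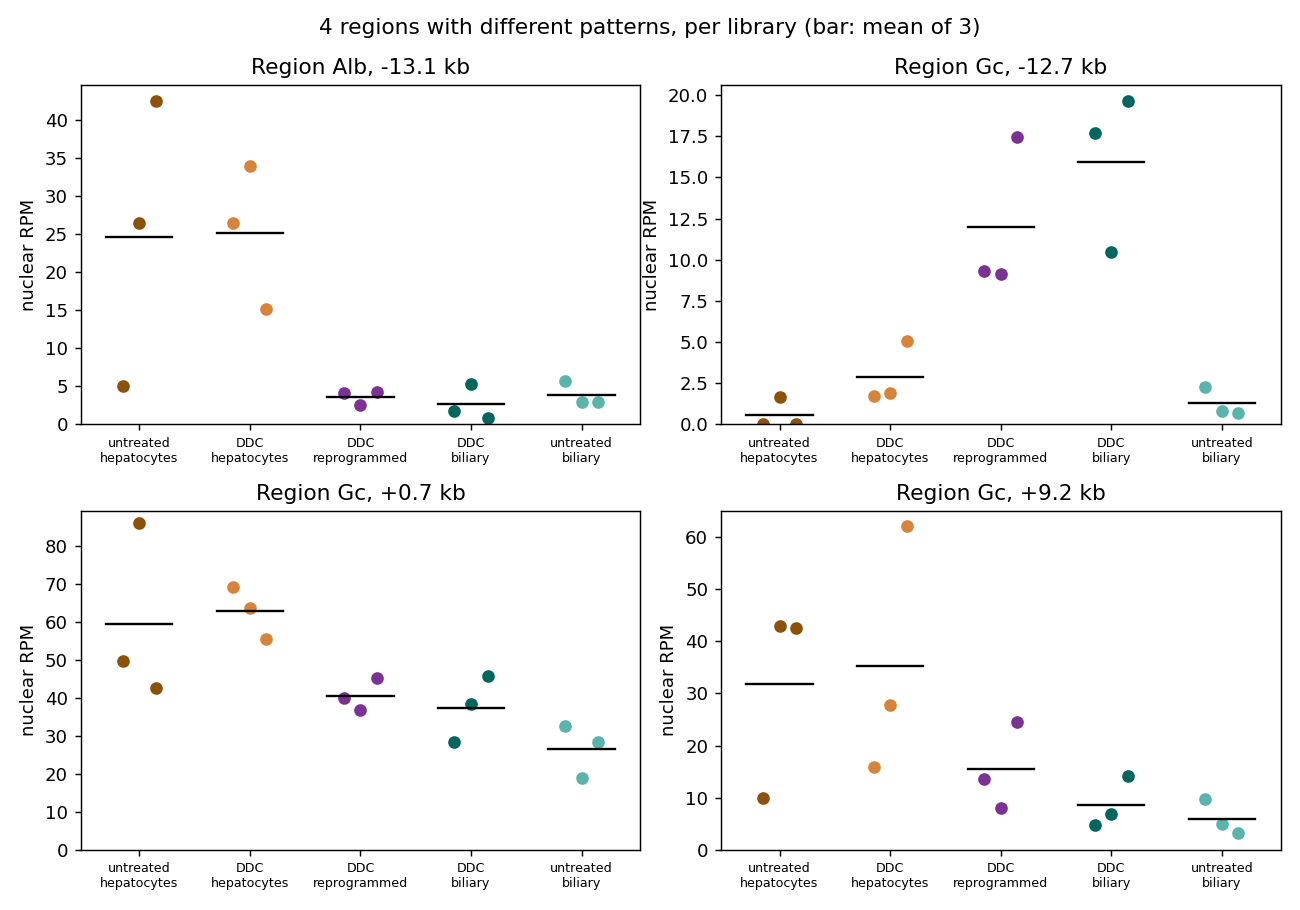
Nuclear RPM per library at 4 regions, named by gene and distance of the midpoint from the start site, with a bar at the mean of 3. The Gc region at -12.7 kb is high in reprogrammed and DDC biliary cells (9.16 to 19.6), while the Alb region at -13.1 kb is low in them (0.782 to 5.24).

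Beyond the 3′ end of Gc, 5 regions lie 2.69 to 47.3 kb past the gene. The one 33.8 kb past it (chr5:89382650-89384695) held 0, 6.61 and 0 nuclear RPM in untreated hepatocytes and 1.71, 1.44 and 5.04 in DDC hepatocytes. It held 9.43, 9.56 and 12.4 in reprogrammed hepatocytes, 8.18, 7.96 and 7.62 in DDC biliary cells, and 6.04, 13.1 and 10.7 in biliary cells of untreated mice. Apart from overlap between untreated hepatocyte library 2 and untreated biliary library 1, the measured hepatocyte values lay below the 3 other groups. The untreated hepatocyte values rest on 0, 4 and 0 reads. In libraries 1 and 3 of that group, 3 reads would give 14.9 and 12.8 nuclear RPM. At that depth they cannot place untreated hepatocytes below the biliary groups. The region was called higher in untreated biliary cells than in untreated hepatocytes (2.42 ± 0.67, adjusted p = 0.0106). This call was lost in edgeR without TMM factors, with only the groups compared and on thinned reads (largest adjusted p 0.588). Regions 9.72 and 27.2 kb past the gene were called higher in DDC biliary cells than in DDC hepatocytes (1.77 ± 0.58, adjusted p = 0.0311, and 1.27 ± 0.45, adjusted p = 0.0461), at means of 4.47 against 0.729 and 2.94 against 0.729 nuclear RPM. These calls rest on at most 4 reads in any DDC hepatocyte library. Leaving out any DDC biliary library, or DDC hepatocyte library 2 or 3, ended both of them, as did thinning, and edgeR did not call the one at 27.2 kb.

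Counted over the 31 regions, 27 reached the mean of 1 nuclear RPM and were tested (6 at Alb, 3 at Afp, 1 at Afm and 17 at Gc). Since a region can pass that limit through the group in which it is high, the counts below describe the regions and support nothing. For reprogrammed against DDC hepatocytes 3 of 27 were called, 1 higher and 2 lower, where 14.2% of all regions tested were called (8.14% higher, 6.06% lower). For DDC biliary cells against DDC hepatocytes 9 were called, 3 higher and 6 lower, against 28.6% of all regions (16.4% higher, 12.1% lower). The medians of the 27 were -0.76 and -1.30 in these comparisons, beside 0.17 and 0.15 over all regions. For untreated biliary cells against untreated hepatocytes 9 were called, 2 higher and 7 lower, against 33.0% (22.1% higher, 10.9% lower), with a median of -0.77 beside 0.39. This split depends on the scaling: with mitochondrial reads in the total 6 were higher and 1 lower (55.3% and 2.82% of all regions), 3 of the 9 calls being among these 7. In edgeR 0 were higher and 6 lower, against 20.6% of all regions called (8.65% higher, 11.9% lower). The share that limma called was near the background in each, while 22 of 27 differences were negative in both DDC comparisons. edgeR called more in the DDC comparisons: 12 (2 higher, 10 lower) in reprogrammed hepatocytes and 19 (3 higher, 16 lower) in DDC biliary cells, with all 3 and 8 of the 9 limma calls among them. Of all regions edgeR called 30.5% and 43.3% there.

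**Figure D5:**
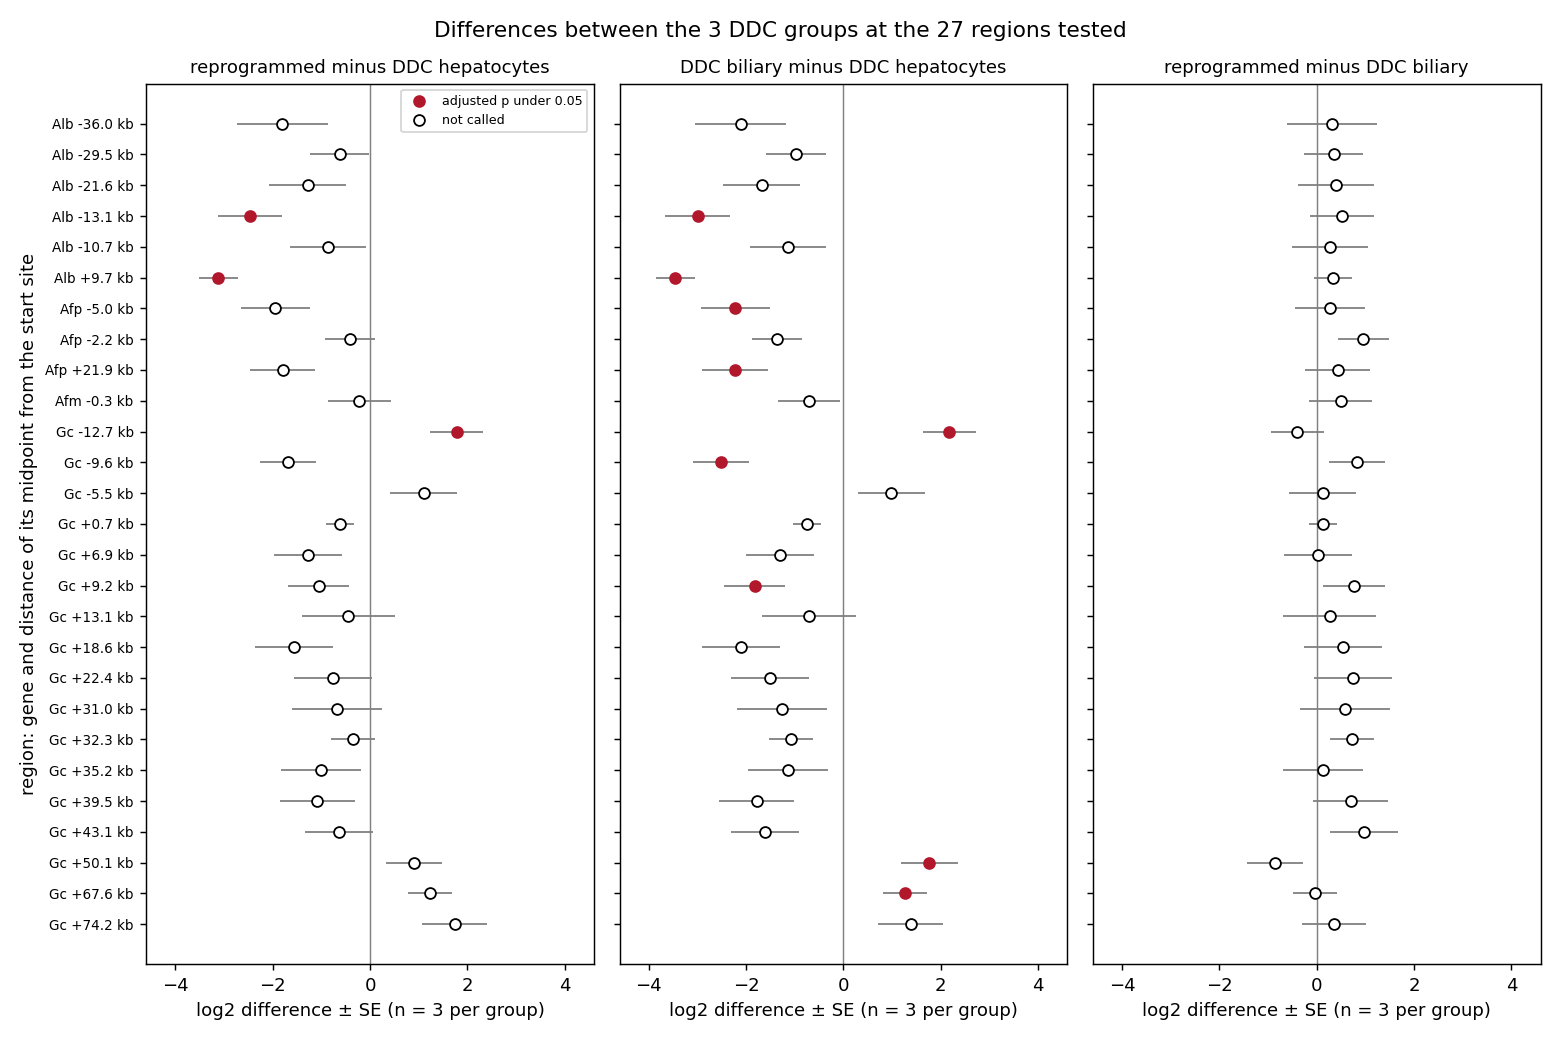
Points give the log2 difference and bars its SE (n = 3 per group) at the 27 tested regions for the 3 comparisons between DDC groups, with filled points called at adjusted p under 0.05. Most Alb and Gc body regions lie left of 0 in the first 2 panels, the Gc region at -12.7 kb lies to the right, and no region is called in the third.

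Reprogrammed hepatocytes and DDC biliary cells were not called different at any of the 27 regions by limma, nor by edgeR. At an unadjusted p under 0.05 limma had 0 of them and edgeR 3, all higher in reprogrammed hepatocytes. Over all regions limma called 0.0% and edgeR 1771 of 79075 (2.24%). At the level of genes, all 4 differences were positive, with 0.37 ± 0.37 at Alb, 0.72 ± 0.51 at Afp, 0.76 ± 0.60 at Afm and 0.34 ± 0.30 at Gc, and an adjusted p of 1 for each. The intervals reached from -0.38 to 1.11 at Alb and from -0.26 to 0.93 at Gc.

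Few of these regions were called between treated and untreated cells of a type. In hepatocytes 1 of 27 regions was called, against 12.1% of all regions (9.94% higher), namely a 370 bp region 32.3 kb into Gc. It held 1.71, 2.39 and 2.52 nuclear RPM in DDC hepatocytes and no read in untreated hepatocytes, where 3 reads would give 4.96 to 14.9, so no fold is given. Neither edgeR nor thinning to equal depth made that call. In biliary cells 1 of 27 was called, against 3.47% (2.92% higher), the region 12.7 kb upstream of Gc. For reprogrammed hepatocytes against untreated biliary cells limma called that region, 1 of 27 against 2.69% (1.89% higher). edgeR called 3 there, all higher and all at Gc, against 12.3% of all regions. None of the 27 was called for a difference between the DDC effects in hepatocytes and in biliary cells, against 2.35% of all regions. There limma had 3 at an unadjusted p under 0.05, and edgeR had 0 and called none, against 1.37% of all regions.

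Of the 4 genes, limma called 2 lower in reprogrammed than in DDC hepatocytes, against 14.2% of genes called in either direction and 6.43% called lower. It called 3 lower in DDC biliary cells, against 24.5% (11.8% lower), and 3 lower in untreated biliary cells than in untreated hepatocytes, against 39.0% (13.5% lower). None of the 4 was called for DDC in hepatocytes (13.6% of genes), for DDC in biliary cells (3.31%), between reprogrammed hepatocytes and DDC biliary cells (0.0246%), between reprogrammed hepatocytes and untreated biliary cells (2.67%) or for the difference of DDC effects (2.77%). Other settings made some of these calls. With mitochondrial reads in the total, Alb, Afp and Gc were higher in DDC than in untreated hepatocytes (adjusted p = 0.00244, 0.00192 and 0.000184), where 84.6% of all genes were called higher. With that total Alb and Afp were also called for the difference of DDC effects (0.0103 and 0.00181), where 63.4% of all genes were called (62.4% higher). For DDC in biliary cells, Afp was called lower in edgeR (-1.80, adjusted p = 0.0149), and limma on only the groups compared called Afp lower (0.0248) and Gc higher (0.0287). Gc was called higher in reprogrammed hepatocytes than in untreated biliary cells by edgeR (0.96, adjusted p = 0.00878) and by limma on only the groups compared (0.00452).

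Most genes of other plasma proteins made by hepatocytes were also less accessible outside hepatocytes. Of 26 symbols listed for such genes, with transferrin listed as both Tf and Trf, 23 had regions and were tested. Of these 17 were lower and 0 higher in reprogrammed than in DDC hepatocytes, with a median of -1.32 beside 0.12 over all genes, of which 6.43% were called lower. Kng1, the kininogen precursor (-2.80 ± 0.68, adjusted p = 0.0122), Hpx, which binds free heme (-2.73 ± 0.57, adjusted p = 0.00534), and Apoa1 of high density lipoprotein (-2.50 ± 0.43, adjusted p = 0.00162) were among them. All values here are accessibility, not expression. C3, of the complement system (-0.69, adjusted p = 0.145), and Itih4, an inhibitor heavy chain (0.13, adjusted p = 0.814), were among the 6 without a call. In DDC biliary cells 19 were lower and 0 higher (median -2.43 beside 0.07, with 11.8% of all genes lower), and in untreated biliary cells 21 were lower and 0 higher (median -2.03 beside 0.32, with 13.5% lower). Between reprogrammed hepatocytes and DDC biliary cells none was called, and the median was 0.57 beside 0.05.

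Regulators known to bind the control regions of Alb and Afp were called, with both directions counted, about as often as genes in general in reprogrammed hepatocytes. Of 14, all with regions, 0 were higher and 2 lower in reprogrammed than in DDC hepatocytes, with a median of -0.11 beside 0.12 over all genes. Of all genes 14.2% were called, 7.80% higher and 6.43% lower. Hnf4a, a nuclear receptor of hepatocytes, was lower (-1.18 ± 0.33, adjusted p = 0.026), as was Cebpa (-0.54 ± 0.17, adjusted p = 0.044), the C/EBP alpha gene. The summed signal of Hnf4a stood at 162 ± 18.3 nuclear RPM in reprogrammed hepatocytes, between 370 ± 52.5 in DDC hepatocytes and 79.4 ± 14.9 in DDC biliary cells. In DDC biliary cells 0 regulators were higher and 3 lower than in DDC hepatocytes, against 24.5% of all genes called (12.7% higher, 11.8% lower). The 3 were Hnf4a (-2.21 ± 0.33, adjusted p = 0.000209), Cebpa (-0.65 ± 0.17, adjusted p = 0.0101) and its relative Cebpb (-0.64 ± 0.21, adjusted p = 0.0393). In untreated biliary cells 1 regulator was higher than in untreated hepatocytes, the nuclear factor I gene Nfic (0.50 ± 0.19, adjusted p = 0.0478). There 5 were lower, namely Cebpa, Cebpb, Foxa2, Hnf4a and Nr5a2 (-2.35 to -0.60), and of all genes 39.0% were called (25.4% higher, 13.5% lower). Of 5 known repressors of Afp, namely Zhx2, Zbtb20, Trp53, Nr2f1 and Nr2f2, none was called in either comparison with DDC hepatocytes. Zbtb20 was higher in untreated biliary cells than in untreated hepatocytes (0.39 ± 0.11, adjusted p = 0.0108).

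Of 8 neighbouring genes around the 2 loci, 2 were higher and 0 lower in reprogrammed than in DDC hepatocytes, where 7.80% of all genes were called higher and 6.43% lower: Adamts3, which processes procollagen (2.48 ± 0.33, adjusted p = 0.000335), and Cxcl5, a chemokine for neutrophils (2.11 ± 0.65, adjusted p = 0.0403). The same 2 genes were higher in DDC biliary cells (2.97 and 2.65), where 12.7% of all genes were called higher. Ankrd17, the nearest gene before Alb, differed by 0.04 ± 0.22 (adjusted p = 0.946) and -0.05 ± 0.22 (adjusted p = 0.914). In untreated biliary cells 7 of the 8 were higher than in untreated hepatocytes, in a comparison where 25.4% of all genes were called higher and the median gene was at 0.32. At the outer edge of Alb the nearest-gene rule sets the limit. The outermost Alb region, 36.0 kb upstream, held 16.5 nuclear RPM on average in untreated hepatocytes and 3.90 in reprogrammed hepatocytes. The first one outside, 46.4 kb upstream but nearer to Ankrd17 (45.7 kb), held 26.6 and 17.6.

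Over the 15 libraries, the 4 genes among 13300 whose summed log2 signal ran most like Alb were Mettl7b (Pearson r = 0.986), Dnaja3 (0.983), Slc7a2 (0.982) and Fmo5 (0.982). Afp ran at 0.843 with Alb, Gc at 0.691 and Afm at 0.589. Afp was most like Chchd10 (0.957) and Prlr (0.943), Gc most like Ddc (0.932) and Itpr1 (0.930), and Afm most like Slc49a4 (0.865). These values describe libraries that share groups, depth and mitochondrial share, and they carry no test.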

How the data were processed

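The 15 ATAC-seq libraries share a deposited file of 93217 regions. The submitters' processing notes name Bowtie2, MACS2, SAMtools, bedtools and the build mm10; versions, settings, duplicate handling and the merging of regions across libraries are not stated there. The deposited values, which the authors call TPM, are RPM: up to 100 reads every value was a whole multiple of what 1 read is worth (100% of values, tolerance 0.02), with no division by length and with 2 mitochondrial regions in the total. In 1 library (DDC reprogrammed 1) that step lies near a power of 10, so the pattern is weaker evidence there. The plan allowed for TPM or RPM, and the test is the same for both.

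Here, each library was rescaled to 1000000 without the mitochondrial regions, and reads were recovered from the steps. Gene bodies and strands came from RefSeq for the same build. Each region was tied to the protein-coding gene whose body held its midpoint, or else to the nearest within 50 kb, and a gene's value is the sum over its regions. limma with a mean trend (limma 3.58.1, R 4.3.3) was fitted to log2(nuclear RPM + 1) of all 15 libraries, over 79075 regions and 16273 genes of mean 1 or more, with two-sided tests and Benjamini-Hochberg adjustment over all features of a comparison. Adding 1 understates the change of low regions. Reads were also tested with edgeR 4.0.16, and the statistics were first run on simulated data. Tables and figures used pandas 2.3.3, matplotlib 3.10.9 and numpy 2.4.6 under Python 3.11.15, and data.table (version 1.17.8). No pair of replicates was a copy (chi-square per degree of freedom 2.18 to 7.47).

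The genes and lists were chosen with earlier results of these data known. Printed in full are, for each gene, the region with the highest mean and the one nearest the start, and, for each comparison, the called region with the largest change in each direction. Regions outside this rule were named after their values were seen: those 13.1 kb upstream of Alb, 4.96 kb upstream of Afp, 32.8 kb into Afm, and 9.6 kb upstream, 9.22 kb into and 9.72 and 27.2 kb past Gc. The likeness search used genes of mean sum 10 or more. The lists share Hnf4a, Ttr and Apoa1, and some items of them are not reported here. Marker sums of other cell types were 94.2 to 183 nuclear RPM for macrophages (3 of 7 genes with regions, Adgre1, Clec4f, Lyz2 and Vsig4 without), 73.1 to 187 for endothelium (6 of 6), 106 to 243 for stellate cells and fibroblasts (5 of 5), 2.73 to 47.9 for lymphocytes (4 of 5, Cd79a without) and 29.7 to 69.3 for erythroid cells (3 of 4, Hbb-bt without) over all libraries.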

Additional observations from a re-analysis of the deposited data

How the results depend on the processing

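The alternatives were values as deposited with mitochondrial reads in the total, pseudocounts of 0.5 and 5, no filter and a mean of 5 or more, fits of the compared groups only or without untreated hepatocytes, the replicate number as a block, edgeR without and with TMM factors, thinning to 201705 reads, leaving out each library, and 2 other rules for tying regions to genes. The number of regions called for untreated biliary cells against untreated hepatocytes, 9, became 2 with only the groups compared, 4 with TMM, 2 on thinned reads and 3 with regions inside gene bodies only. Of all regions 17.5% were called with only the groups compared, 28.5% with TMM and 6.94% on thinned reads. For DDC in hepatocytes, 1 became 16 as deposited and 0 with the mean of 5, only the groups compared, edgeR, TMM or thinned reads. There 47.8% of all regions were called as deposited, 13.8% with the mean of 5 and 0% with only the groups compared. The share was 1.48% in edgeR, 6.93% with TMM and 0.299% on thinned reads. For DDC in biliary cells, 1 became 2 with only the groups compared, without untreated hepatocytes or with TMM, and 0 on thinned reads or inside bodies. The shares of all regions were 22.3% with only the groups compared, 15.3% without untreated hepatocytes, 13.3% with TMM and 0.0579% on thinned reads. For reprogrammed against DDC hepatocytes, 3 became 8 as deposited, 5 at pseudocount 5, 12 with only the groups compared, without untreated hepatocytes or in edgeR, 11 with TMM, and 1 on thinned reads or inside bodies. Of all regions 35.0% were called as deposited, 17.0% at pseudocount 5 and 32.1% with only the groups compared. The share was 37.3% without untreated hepatocytes, 30.5% in edgeR, 31.9% with TMM and 0.752% on thinned reads. For DDC biliary cells against DDC hepatocytes, 9 became 5 with the mean of 5, 20 with only the groups compared or without untreated hepatocytes, 19 in edgeR with or without TMM, 3 on thinned reads and 2 inside bodies. For reprogrammed hepatocytes against untreated biliary cells, 1 became 2 as deposited or without untreated hepatocytes, 3 with only the groups compared or in edgeR, 4 with TMM, and 0 on thinned reads or inside bodies. There 11.3% of all regions were called as deposited, 14.1% without untreated hepatocytes and 17.3% with only the groups compared. The share was 12.3% in edgeR, 12.5% with TMM and 0.0633% on thinned reads. For the difference of DDC effects, 0 became 6 as deposited, where 27.5% of all regions were called. The 8 calls over the 4 genes became 5 on thinned reads.

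Directions turned, most of them at differences that were not called. As deposited, Alb between DDC and untreated hepatocytes became 1.58, Afm there 0.15, Afp between untreated biliary cells and hepatocytes 0.68, Gc there 0.56 and its start region 0.71, and the difference of DDC effects 0.0068 at Afm and 1.06 at Gc. On thinned reads Alb between reprogrammed hepatocytes and DDC biliary cells became -0.21, Afm between reprogrammed and DDC hepatocytes -1.04, and, for DDC biliary cells against DDC hepatocytes, the Gc regions 9.72 and 27.2 kb past the gene became -0.86 and 0.0. Afm for DDC in biliary cells became -0.0045 at pseudocount 5, -0.17 in edgeR and -0.15 with TMM. The cause of these turns was not tested, apart from the added mitochondrial reads. Leaving out 1 library gave 4 to 12 calls for untreated biliary cells against untreated hepatocytes, 0 to 6 for DDC in hepatocytes, 0 to 1 for DDC in biliary cells, 1 to 3 for reprogrammed against DDC hepatocytes, 4 to 8 for DDC biliary cells against DDC hepatocytes, 0 to 1 for reprogrammed hepatocytes against untreated biliary cells, 0 to 3 for the difference of DDC effects, and 1 to 4 of the gene calls that involve the library's group. It gave -0.28 to 0.17 for Alb, -0.30 to 0.42 for Afp and -0.10 to 0.41 for Gc between DDC and untreated hepatocytes, -0.48 to 0.13 for Alb between reprogrammed hepatocytes and untreated biliary cells, and for Afm -0.59 to 0.45 for DDC in biliary cells and -0.12 to 0.65 between reprogrammed and DDC hepatocytes. The shares of all regions called moved too when 1 library was left out. They were 24.6% to 41.0% for untreated biliary cells against untreated hepatocytes, and 7.03% to 24.1% for DDC in hepatocytes. For reprogrammed against DDC hepatocytes they were 4.12% to 10.5%, and for DDC biliary cells against DDC hepatocytes 16.6% to 23.2%.

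Nothing in the labels pairs libraries by number. The deviations of libraries with the same number correlated at -0.12 to 0.21 over all groups (30 pairs). This range includes pairs of treated with untreated groups, which come from different mice, so it cannot decide whether libraries were paired. Among the 3 DDC groups all 9 pairs with the same number were positive (0.02 to 0.21, 4 of them over 0.1). The 18 pairs with other numbers there lay at -0.17 to 0.02. In 17 of 18 cases a library correlated best with its own number, a hint from the data and not from the design. Deviations were taken from each group's own mean, so positive pairs with the same number force the others to be negative on balance. The range of the other pairs and the 17 of 18 cases are therefore not separate evidence. With the number as a block, the regions called were 9, 1, 1, 2, 10, 0, 1 and 0 in the order of comparisons untreated biliary cells against untreated hepatocytes, DDC in hepatocytes, DDC in biliary cells, reprogrammed and biliary cells each against DDC hepatocytes, reprogrammed hepatocytes against DDC biliary and against untreated biliary cells, and the difference of DDC effects. Of all regions the block called 32.6%, 11.3%, 3.01%, 13.0%, 28.1%, 0%, 2.15% and 1.67% in the same order. The gene calls were then 7. The block gives a number the same shift in treated and untreated groups, so it does not model pairing among the DDC groups alone. In comparisons with untreated hepatocytes the median of all regions stood at 0.39 for biliary cells and 0.32 for DDC hepatocytes, at 0.01 and 0.03 in edgeR and at 0.71 and 0.59 in edgeR with TMM, so small differences there carry little weight. Depth limits Afp and Afm most, since untreated hepatocytes hold 4 reads per library at Afp and 2 to 8 at Afm.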

Other observations

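Regions just past Afm showed patterns resembling those of the 4 genes, although the rule ties them to neighbours, and they were picked after their values were seen. In the body of Albfm1, the family member next to Afm, the region at chr5:90560529-90563065 held means of 44.9 nuclear RPM in untreated hepatocytes, 33.9 in DDC hepatocytes, 6.75 in reprogrammed hepatocytes, 4.14 in DDC biliary cells and 8.74 in biliary cells of untreated mice. The next region of that gene, at chr5:90567600-90569176, held 29.4, 35.8, 18.9, 16.2 and 22.1 in the same order. In the body of Rassf6, the region at chr5:90611431-90613019 held 1.10, 2.51, 15.9, 27.2 and 1.78, high in the same 2 groups as the region 12.7 kb upstream of Gc. Since these regions were picked by their values, no test of them is given.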
